A study of Mus musculus with 4 samples.

Results

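The 40 genes described here encode the chaperones of the cytosol and the mitochondria, with their main co-chaperones and regulators. They were chosen by name from the HSP70, HSP40, BAG, small heat shock protein, HSP90, TRiC and mitochondrial chaperone families, and each symbol matched 1 gene of the GENCODE M21 annotation on GRCm38. They are 40 of 54838 gene identifiers in the count tables, and all 40 passed the low-count filter, among 15191 genes tested. For the comparison of the lines they were split by textbook knowledge of heat shock induction, with earlier results of these data known. The 9 stress-inducible members were Hspa1a, Hspa1b, Hsph1, Hsp90aa1, Hspb1, Hspb8, Bag3, Dnajb1 and Dnajb4, 29 members were treated as constitutive, and the transcription factors Hsf1 and Hsf2 were kept apart.

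RNA was sequenced from the mouse embryonic stem cell line E14 (subline E14Tg2a.4, of the 129/Ola strain) and from MLC460, a p300 knock-in line made from E14 cells with CRISPR/Cas9. In MLC460 a monomeric enhanced green fluorescent protein (mEGFP) sits at the N-terminus of the endogenous coactivator p300. Both lines were kept on gelatin in medium with serum and leukemia inhibitory factor. The labels name no heat shock or other stress, so every value below is a level in culture without a named stress. Whether the cultures were free of stress was not tested. Each line gave 2 libraries, named by the labels as biological replicates, and only 1 knock-in line was sampled, so the tag and the derivation of the line cannot be told apart.

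Counts assigned to genes ranged from 18946731 to 26553998 per library. The 10 embryonic stem cell markers listed, such as Tdgf1 and Dppa5a, summed to 6373 to 6968 CPM (the usual count scaled by library size, here after TMM scaling) in every library, and Lum, a fibroblast marker, was at 0 in all 4. Markers of other cell types were lower, and only some lists fell in knock-in libraries. The 10 fibroblast and feeder markers summed to 37.3 and 40.9 CPM in wild-type against 23.5 and 25.1 CPM in knock-in libraries. For 10 endoderm markers the sums were 340 and 383 CPM against 213 and 233 CPM, mostly Col4a1 and Lama1 (118 and 210 CPM in wild-type 1). The 7 mesoderm markers gave 14.8 and 13.3 CPM against 11.6 and 11.7 CPM. For 7 neuroectoderm markers the lines overlapped (152 and 237 CPM against 165 and 152 CPM). The sum of 8 trophoblast markers was higher in knock-in libraries (63.4 and 70.7 CPM against 74.9 and 71.5 CPM). Much of it was Tfap2c, at 34.2 and 34.9 CPM in wild-type and 47.4 and 44.7 CPM in knock-in libraries. Of the 5 trophoblast markers tested, 2 had a positive and 3 a negative log2 fold change (median -0.15). The part of all these markers in the chaperone values below was not tested. The wild-type pair differed more than the knock-in pair (chi-square per degree of freedom 48.8 against 6.15), and the library wild-type 2 stood apart: its deviation from the mean of the libraries rose with the GC content of the transcript across 8938 genes (Spearman rho 0.79), while that of the other 3 libraries fell (-0.61 to -0.44). The fits without it are therefore given beside the genes whose value it moved most.

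Chaperones bind unfolded protein and help it reach its folded state. HSP70 proteins bind short exposed stretches in a cycle of ATP hydrolysis that HSP40 (J-domain) proteins start and that BAG and HSP110 proteins reset by releasing ADP. HSP90 then matures clients such as kinases and steroid receptors, the ring-shaped TRiC complex folds actin and tubulin, and HSP60 with HSP10 folds proteins inside mitochondria. Heat shock factor 1 raises the inducible members during stress through heat shock elements in their promoters. Most members treated as constitutive are made without stress, and some of them, such as Hspa8, have an induced level as well.

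No member passed an adjusted p of 0.05 in the comparison of knock-in with wild-type cells (edgeR quasi-likelihood test, 0 of 40), where 0.0658% of all genes tested passed. At an unadjusted p under 0.05, 5 members were higher in knock-in cells, Hsp90aa1, Dnaja1, Cct6a, Hspd1 and Hsf2, and none was lower, against 3.54% of all genes higher and 7.40% lower. The 40 log2 fold changes ran from -0.72 to 0.58 with a median of 0.14, beside a median of 0.00098 over all genes tested. For 36 of the 40 genes the 95% interval lay within 1 of 0 on the log2 scale, so a change of more than 2-fold in either direction was outside it. DESeq2 also passed 0 of the 40. Without a low-count filter Hsp90aa1 alone passed (edgeR adjusted p = 0.0153), where 1.31% of 27017 genes did.

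How many members passed turned on wild-type 2. With wild-type 1 dropped, leaving wild-type 2 as the lone wild-type library, 16 members passed as higher and 2, Hspa1b and Hspb1, as lower, where 19.0% and 13.1% of all genes did. Without wild-type 2, 0 of 40 passed, where 4.39% of all genes did. Such fits take their spread from the other pair alone and assume that the lone library varies like it. With an offset that removes each library's trend on transcript GC content, 0 of 40 passed, where 1.36% of all genes did. With that offset and without wild-type 1, 7 members passed as higher and 3 as lower, where 5.49% and 6.83% of all genes did.

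The members differed widely in abundance. As counts per kilobase of exon with each library scaled to the same sum (below, the per-length level), the mean over the libraries ran from 1.06 for Hspa1a to 7378 for Hsp90ab1, a ratio of 6957, with a median of 279. Together the 40 genes held 2.84% and 2.75% of the counts in wild-type 1 and 2, and 3.15% in knock-in 1, with knock-in 2 between them. The knock-in shares lay above the wild-type shares, and no test was run on them because the members were chosen with results known. Lengths are the union of annotated exons, so genes with retained introns in the annotation are placed too low.

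**Figure D1:**
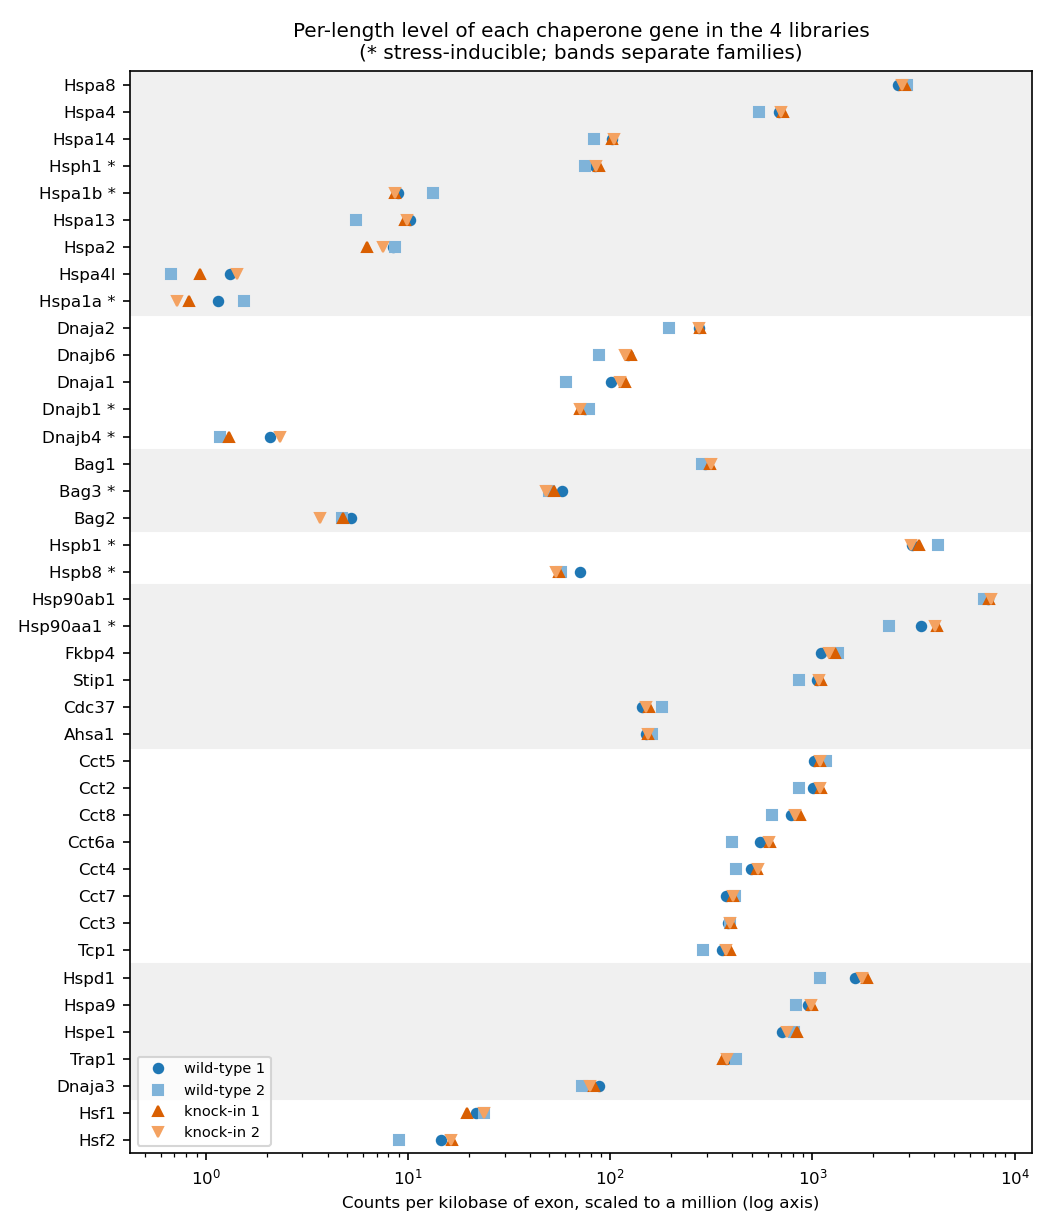
Per-length level (counts per kilobase of exon, each library scaled to the same sum, log axis) of each of the 40 genes in each of the 4 libraries, 1 symbol per library, ordered within families; an asterisk marks the stress-inducible genes. Hsp90ab1 has the highest mean, 7378, and Hspa1a the lowest, 1.06, and the pale squares of wild-type 2 often stand to the left or right of the other 3 symbols.

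The stress-inducible HSP70 genes were expressed at low levels in these cells, for which no stress was named. Hspa1a (ENSMUSG00000091971, chromosome 17, 34969190 to 34972156) and Hspa1b (ENSMUSG00000090877, chromosome 17, 34956436 to 34959238) encode the classical heat-induced HSP70 and lie side by side on the minus strand. Their promoters are shown because they carry the induction signal and because the pair is hard to tell apart by sequence. The stretches run 5′ to 3′ and end at the base before the transcript start (RefSeq, GRCm38.p6). Capitals mark a match to a 2-unit heat shock element, searched as GAANNTTC or TTCNNGAA, each of which is its own reverse complement. Hspa1a is at chr17:34972157-34972406 and Hspa1b at chr17:34959239-34959488, both on the minus strand.
Hspa1a: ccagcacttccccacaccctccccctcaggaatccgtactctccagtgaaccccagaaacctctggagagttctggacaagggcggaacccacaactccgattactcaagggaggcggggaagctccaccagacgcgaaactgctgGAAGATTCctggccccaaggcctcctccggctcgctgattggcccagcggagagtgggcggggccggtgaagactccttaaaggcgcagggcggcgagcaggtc
Hspa1b: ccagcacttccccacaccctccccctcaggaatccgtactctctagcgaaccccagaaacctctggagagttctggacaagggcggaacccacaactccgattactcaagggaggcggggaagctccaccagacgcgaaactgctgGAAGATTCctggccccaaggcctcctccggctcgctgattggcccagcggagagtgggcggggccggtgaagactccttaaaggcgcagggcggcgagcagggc
The 250 bases differ at 3 positions (98.8% identical), and both hold the same element. In the transcripts, 58.8% of the 50-base windows of Hspa1a occur unchanged in Hspa1b, and 62.3% of those of Hspa1b in Hspa1a. Reads that fall wholly in such windows map to both genes and are not in the counts, so the level of each, and their ratio, are uncertain.

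Hspa1a had 27 and 31 counts in the wild-type libraries and 19 and 12 counts in the knock-in libraries, or 0.981, 1.41, 0.780 and 0.642 CPM. Both knock-in libraries lay below both wild-type libraries, with a log2 fold change of -0.72 (standard error 0.44, 95% interval -1.71 to 0.26, adjusted p = 0.527). At these counts a difference of that size could not be told from 0. Hspa1b was more abundant, at 7.19 and 11.5 CPM in wild-type and 7.68 and 7.23 CPM in knock-in libraries. Only wild-type 2 stood out and the groups overlapped (log2 fold change -0.32, standard error 0.26, adjusted p = 0.634). Its value was -0.63 without wild-type 1 (adjusted p = 0.00705) and 0.039 without wild-type 2, so its direction depended on that library.

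Hspa8, the constitutive HSP70 of the cytosol, had a per-length level 220 to 332 times that of Hspa1b in the 4 libraries. Its level was 3253 and 3892 CPM in wild-type and 3914 and 3574 CPM in knock-in libraries. The values overlapped, with a log2 fold change of 0.068 (standard error 0.16, 95% interval -0.29 to 0.42, adjusted p = 0.886). It was -0.054 without wild-type 1, -0.095 with the GC offset, and -0.32 with the offset and without wild-type 1. That last fit gave 0.34 to 0.52 for Hspd1, Dnajb6, Cct6a, Stip1, Hsp90aa1, Bag1 and Dnaja1. Of the 50-base windows of Hspa8, 39.4% recur in 16 other annotated genes, mostly the gene model Gm15459, so its level is uncertain too.

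The other HSP70 and HSP110 genes gave small or uneven values. Hsph1, a stress-inducible HSP110 that resets HSP70, had 175 and 168 CPM in wild-type and 202 and 185 CPM in knock-in libraries. The groups did not overlap, but the log2 fold change was 0.18 (standard error 0.14, adjusted p = 0.636). Its constitutive relative Hspa4 had a log2 fold change of 0.26 (standard error 0.15, adjusted p = 0.519) at 924 to 1246 CPM, against 0.38 without wild-type 1 (adjusted p = 0.00480) and 0.13 without wild-type 2. Hspa13, an HSP70-like ATPase of the microsomes, had 19.9 and 11.7 CPM in wild-type libraries and 20.6 ± 0.59 CPM (mean and SD, n = 2) in knock-in libraries. Wild-type 2 alone was low, and the log2 fold change of 0.38 (standard error 0.25, adjusted p = 0.563) became 0.82 without wild-type 1 (adjusted p = 8.18e-06) and 0.034 without wild-type 2. Hspa14, a ribosome-associated HSP70, stood at 104 to 131 CPM with 0.21 (standard error 0.15), or 0.10 with wild-type 2 left out. Hspa2, best known from the testis, and Hspa4l were low throughout (5.26 to 6.99 and 2.45 to 5.03 CPM), with log2 fold changes of -0.25 (standard error 0.23) and 0.29 (standard error 0.34). Hspa4l turned to -0.085 without wild-type 2 and -0.050 with the GC offset, and with wild-type 1 left out it passed, at 0.78 (adjusted p = 0.0463).

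The 5 cytosolic HSP40 genes held the member with the largest positive value. Dnaja1 (ENSMUSG00000028410, chromosome 4, 40722150 to 40737149), a J-domain partner of HSP70, had 251 and 160 CPM in wild-type and 323 and 291 CPM in knock-in libraries. Both knock-in libraries were above both wild-type libraries, and wild-type 2 was far below wild-type 1. The log2 fold change was 0.58 (standard error 0.21, 95% interval 0.11 to 1.05, adjusted p = 0.417), against 0.94 without wild-type 1 (adjusted p = 6.22e-15) and 0.28 without wild-type 2 (adjusted p = 0.137). Exons of other genes, among them Smu1 on the opposite strand, cover 10.8% of its exonic bases.

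Dnajb1, the main stress-inducible HSP40, had 68.7 and 77.2 CPM in wild-type and 71.9 and 68.0 CPM in knock-in libraries. These values overlapped, with a log2 fold change of -0.059 (standard error 0.16, 95% interval -0.41 to 0.29, adjusted p = 0.900). Dnajb4, another inducible HSP40, was low and uneven at 5.19 and 3.18 CPM in wild-type and 3.61 and 6.16 CPM in knock-in libraries. Its libraries differed more within each line than between the lines (log2 fold change 0.20, standard error 0.34, adjusted p = 0.833). The constitutive Dnaja2 and Dnajb6, the latter an inhibitor of aggregation, stood at 179 to 262 and 164 to 243 CPM with log2 fold changes of 0.29 (standard error 0.17) and 0.28 (standard error 0.17). In both, the knock-in libraries lay above the wild-type libraries. Without wild-type 2 the values were 0.099 and 0.094, and without wild-type 1 both passed (0.51, adjusted p = 4.09e-05, and 0.49, adjusted p = 8.64e-05).

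Among the BAG nucleotide exchange factors, the stress-inducible Bag3, which directs aggregated protein to autophagy, had 42.6 and 39.4 CPM in wild-type and 42.8 and 36.9 CPM in knock-in libraries. The lines overlapped fully (log2 fold change -0.041, standard error 0.17, adjusted p = 0.938). Bag1 and Bag2 had log2 fold changes of 0.16 (standard error 0.14) and -0.16 (standard error 0.27), at 114 to 133 and 3.37 to 4.64 CPM.

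The small heat shock proteins hold unfolded protein without ATP. Hspb1 (HSP25 in the mouse; ENSMUSG00000004951, chromosome 5, 135887919 to 135889563) had a mean per-length level of 3429, close to the 3498 of Hsp90aa1. Its promoter is shown because this stress-inducible gene was abundant in cultures without a named stress. It lies at chr5:135887669-135887918 on the plus strand, with 2 separate elements in capitals.
Hspb1: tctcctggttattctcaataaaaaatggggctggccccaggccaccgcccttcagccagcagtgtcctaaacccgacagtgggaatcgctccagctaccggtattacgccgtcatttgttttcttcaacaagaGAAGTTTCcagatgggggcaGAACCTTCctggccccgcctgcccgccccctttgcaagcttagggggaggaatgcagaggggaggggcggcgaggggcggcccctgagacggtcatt
Hspb1 had 914 and 1324 CPM in wild-type and 1102 and 956 CPM in knock-in libraries. Wild-type 2 was highest and wild-type 1 lowest, so the groups overlapped (log2 fold change -0.12, standard error 0.19, adjusted p = 0.822). The value was -0.36 without wild-type 1 (adjusted p = 0.00591), 0.16 without wild-type 2 and 0.079 with the GC offset. Of its 50-base windows, 48.8% recur in the pseudogene Hsp25-ps1. Hspb8, which works with Bag3, had 39.5 and 34.5 CPM in wild-type and 34.3 and 31.4 CPM in knock-in libraries. The knock-in libraries lay just below the wild-type libraries, with a log2 fold change of -0.17 (standard error 0.17, adjusted p = 0.699).

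Hsp90ab1, the constitutive HSP90, was the most abundant member, at 6348 and 6506 CPM in wild-type and 7087 and 6880 CPM in knock-in libraries. Its log2 fold change was 0.12 (standard error 0.15, 95% interval -0.21 to 0.45, adjusted p = 0.758). Hsp90aa1 (ENSMUSG00000021270, chromosome 12, 110690605 to 110702728), the stress-inducible form, had 3893 and 2883 CPM in wild-type and 5146 and 4757 CPM in knock-in libraries. Both knock-in libraries were above both wild-type libraries, and this member had the smallest adjusted p (log2 fold change 0.55, standard error 0.18, 95% interval 0.15 to 0.95, adjusted p = 0.363). The value was 0.78 without wild-type 1 (adjusted p = 1.52e-08), 0.33 without wild-type 2 (adjusted p = 0.101) and 0.33 with the GC offset (adjusted p = 0.201). Per length, Hsp90ab1 stood at 2.14 and 2.96 times Hsp90aa1 in wild-type 1 and 2, with 1.81 and 1.90 times in the knock-in libraries. The ratio is uncertain, since 47.5% of the windows of Hsp90aa1 recur in other annotated genes, 41.8% in the gene model Gm12346, against 3.4% for Hsp90ab1.

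The co-chaperones of HSP90 gave small values. Stip1, which hands clients from HSP70 to HSP90, had a log2 fold change of 0.25 (standard error 0.15) at 557 to 736 CPM, with both knock-in libraries above both wild-type libraries, and 0.14 when wild-type 2 was left out. Ahsa1, the activator of the HSP90 ATPase, Cdc37, which brings kinases, and Fkbp4, which serves steroid receptors, had values of 0.034 (standard error 0.15), -0.036 (standard error 0.17) and 0.081 (standard error 0.17). For these 3 genes the lines overlapped, and all 3 were negative without wild-type 1 (-0.059, -0.24 and -0.10) and positive without wild-type 2 (0.12, 0.19 and 0.28).

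TRiC is a ring of 8 different subunits that each complex holds in equal number. Their mean per-length levels ran from 353 for Tcp1 to 1092 for Cct5, a ratio of 3.10. That ratio depends on the exon-union lengths used as divisor, 5030 bases for Tcp1 and 2766 for Cct5. Before division by length, their wild-type means were 481 and 901 CPM. The ratio is therefore no measure of unequal subunit number. All 8 log2 fold changes were positive, from 0.050 for Cct5 to 0.43 for Cct6a, with a median of 0.29, and 0 of 8 passed. The count of positive values stayed at 8 with DESeq2 size factors and without wild-type 2 (median 0.20), but was 6 without wild-type 1 and 5 with the GC offset (median 0.052). With the offset it was 3 without wild-type 1 (median -0.060) and 4 without knock-in 1 (median -0.0076), so the direction of the group was not the same in every fit. Both knock-in libraries were above both wild-type libraries for 5 of the 8 subunits, where 23.4% of all genes tested were so placed.

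Cct6a (ENSMUSG00000029447, chromosome 5, 129786998 to 129846371) had 571 and 445 CPM in wild-type and 708 and 665 CPM in knock-in libraries. The lines did not overlap, and the log2 fold change was 0.43 (standard error 0.16, 95% interval 0.065 to 0.80, adjusted p = 0.424), or 0.25 without wild-type 2. Psph on the opposite strand and the small RNA Snora15 share 15.3% of its exonic bases. Cct8 had 697 and 600 CPM in wild-type and 849 and 760 CPM in knock-in libraries (log2 fold change 0.31, standard error 0.15, adjusted p = 0.476). Tcp1, the founding subunit, had 517 and 444 CPM in wild-type and 622 and 567 CPM in knock-in libraries (0.31, standard error 0.15, adjusted p = 0.476). In both genes the knock-in libraries were above the wild-type libraries, and wild-type 2 was the lowest of the 4. Cct2 and Cct4 gave 0.29 each (standard error 0.14 each), and Cct3 and Cct7 gave 0.077 (standard error 0.14) and 0.087 (standard error 0.15). With the GC offset and without wild-type 1, Cct7 gave -0.37 and Cct6a gave 0.46.

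In the mitochondria, Hspd1 (HSP60) and Hspe1 (HSP10) form the folding chamber and its lid, and their genes start head to head on chromosome 1 within 112 shared exonic bases. Hspd1 (ENSMUSG00000025980) spans 55077835 to 55088243 on the minus strand and Hspe1 (ENSMUSG00000073676) spans 55088132 to 55091307 on the plus strand. The element shown lies in a RefSeq promoter window of both genes, at chr1:55088053-55088082, before the annotated start of Hspe1 and inside the annotated span of Hspd1. It is written on the Hspe1 strand with its match of 18 bases in capitals.
Hspe1: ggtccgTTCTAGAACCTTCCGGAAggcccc
Hspd1 had 1231 and 892 CPM in wild-type and 1548 and 1391 CPM in knock-in libraries. Both knock-in libraries were above both wild-type libraries (log2 fold change 0.47, standard error 0.18, 95% interval 0.062 to 0.88, adjusted p = 0.431). The value was 0.72 when wild-type 1 was left out (adjusted p = 2.22e-08) and 0.24 when wild-type 2 was (adjusted p = 0.263). Hspe1 had 298 and 368 CPM in wild-type and 389 and 331 CPM in knock-in libraries. Here the lines overlapped and wild-type 2 was the higher of its pair (log2 fold change 0.11, standard error 0.17, adjusted p = 0.802). The value of Hspe1 was 0.26 without wild-type 2. With the GC offset and without wild-type 1, Hspe1 gave -0.32 and Hspd1 gave 0.52.

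The partner genes thus parted in wild-type 2: per length, Hspd1 stood at 1.35 times Hspe1 there, against 2.31 in wild-type 1 and 2.22 and 2.35 in the knock-in libraries. Windows shared with other genes made up 42.1% of Hspd1, mostly the pseudogene Hspd1-ps3, and 22.8% of Hspe1. Hspa9, the mitochondrial HSP70 (mortalin), had 1172 and 1100 CPM in wild-type and 1350 and 1266 CPM in knock-in libraries. The lines did not overlap, with a log2 fold change of 0.20 (standard error 0.14, adjusted p = 0.582). Trap1, the mitochondrial HSP90, and Dnaja3, the mitochondrial HSP40, gave -0.044 (standard error 0.15) and 0.082 (standard error 0.15).

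Of the regulators, Hsf1, the heat shock factor that answers stress, had 44.3 and 51.9 CPM in wild-type and 43.9 and 50.5 CPM in knock-in libraries. The lines overlapped (log2 fold change -0.029, standard error 0.17, 95% interval -0.41 to 0.36, adjusted p = 0.959). Hsf2 (ENSMUSG00000019878, chromosome 10, 57486385 to 57513135), a factor known from development, had 40.2 and 26.8 CPM in wild-type and 50.3 and 47.1 CPM in knock-in libraries. Both knock-in libraries were above both wild-type libraries (log2 fold change 0.54, standard error 0.21, 95% interval 0.066 to 1.01, adjusted p = 0.434). Without wild-type 1 the value was 0.86 (adjusted p = 3.16e-09), without wild-type 2 it was 0.26 (adjusted p = 0.264), and with the GC offset it was 0.076. Of all members it had the lowest GC content, 36.2%.

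**Figure D2:**
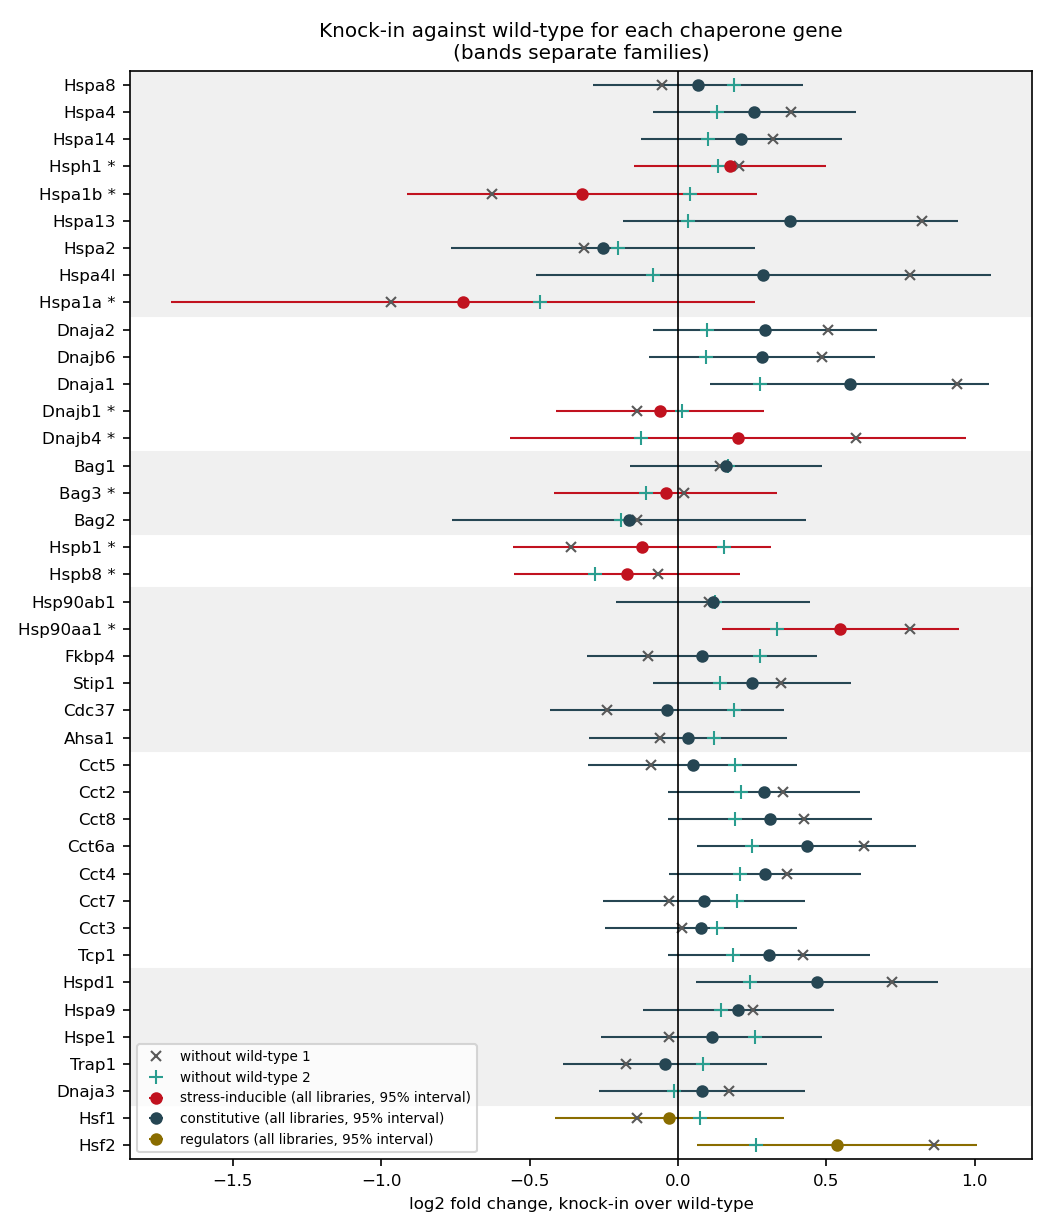
Log2 fold change of knock-in over wild-type for each of the 40 genes, with the 95% interval from the fit on all 4 libraries (dots and bars, coloured by group; asterisks mark stress-inducible genes) and the value without wild-type 1 (crosses) or without wild-type 2 (plus signs). The 8 TRiC dots all lie right of 0, 5 of the 40 intervals leave out 0, and the crosses and plus signs of a gene lie apart wherever its wild-type libraries differ.

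The members were also compared by group. Of the 29 constitutive genes, 25 had a log2 fold change above 0 (median 0.20), against 3 of the 9 stress-inducible genes (median -0.059), and the difference between the groups was not tested. With the GC offset these counts were 19 of 29 and 5 of 9. With the offset and without wild-type 1 they were 15 of 29 and 5 of 9, so the order by share above 0 did not hold in every fit. The constitutive median was above the stress-inducible median in every fit, by little in the one just named (0.041 against 0.036). With the wide list of 18 inducible genes, which adds genes with both a basal and an induced level such as Hspa8, Hspd1 and Dnaja1, the inducible median was 0.098. For the split into 29 and 9 genes, the medians were 0.15 and 0.014 without wild-type 2, and 0.051 and 0.0026 with the GC offset. For the wide inducible list the median was -0.0044 without wild-type 1, 0.13 without wild-type 2 and 0.041 with the GC offset. The median GC content of the transcripts was 47.2% for the constitutive and 53.0% for the stress-inducible genes. Both knock-in libraries lay above both wild-type libraries for 16 of the 29 constitutive and 2 of the 9 stress-inducible genes, and below for 1 and 2. Over all 40 members these counts were 19 above and 3 below, where 23.4% and 23.9% of all genes tested were so placed.

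**Figure D3:**
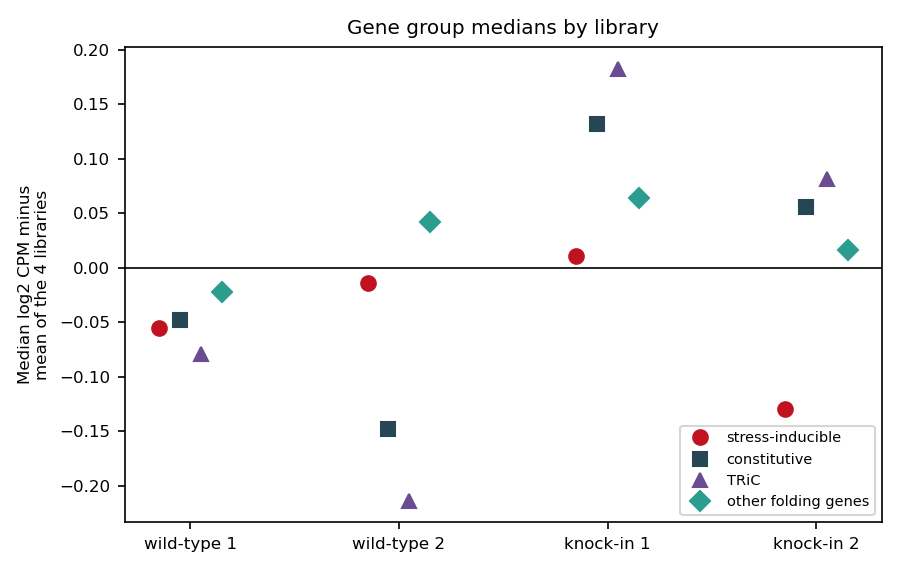
Median over the genes of a group of the log2 CPM in a library minus the mean of the 4 libraries, for the 9 stress-inducible, 29 constitutive and 8 TRiC genes and for 50 other folding genes tested. The constitutive and TRiC medians are below 0 in both wild-type and above 0 in both knock-in libraries, while the stress-inducible medians lie between -0.13 and 0.011 with no order by line.

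By library, the constitutive median deviated from the mean of the libraries by -0.048 in wild-type 1, -0.15 in wild-type 2, 0.13 in knock-in 1 and 0.056 in knock-in 2. The stress-inducible medians were -0.055, -0.014, 0.011 and -0.13. The knock-in replicates also differed by a small step: 36 of the 40 genes were lower in knock-in 2 than in knock-in 1, with a median absolute difference of 0.12 on the log2 scale. The corresponding difference of the wild-type pair was 0.24, and 32 of the 40 genes differed more between the wild-type than between the knock-in libraries.

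The difference between the wild-type replicates was ordered by base composition. Over the 40 members, the log2 ratio of wild-type 2 to wild-type 1 had a Spearman correlation of 0.65 with transcript GC content, against -0.14 for knock-in 2 over knock-in 1. For example, the GC-rich members Hspa1b and Hspb1 were higher in wild-type 2, with log2 ratios of 0.68 and 0.53, and the AT-rich members Dnaja1 and Hsf2 were lower, with -0.65 and -0.58. The log2 fold change of the lines had a correlation of -0.75 with GC content over the same members, and of -0.38 when wild-type 2 was left out. These correlations describe genes that share the same libraries and are not independent replicates. The part of base composition in the fold changes was not tested otherwise than by the GC offset.

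**Figure D4:**
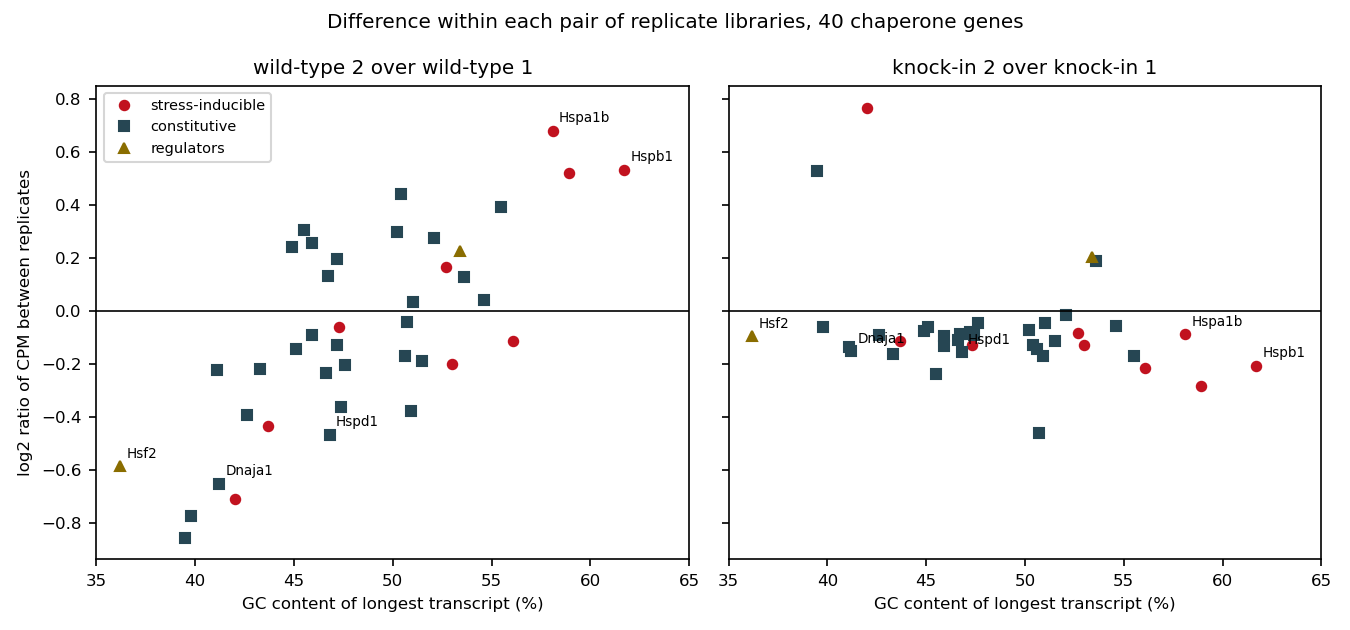
Log2 ratio of CPM between the replicate libraries of each line against the GC content of the longest transcript (%), 1 point for each of the 40 genes. Points climb from left to right for the wild-type pair (Spearman rho 0.65) and lie mostly just below 0 for the knock-in pair (-0.14).

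Heat shock elements were counted by their letters alone. RefSeq promoter windows (250 bases before to 50 after the start) were matched for 33 of the 40 members. A 2-unit element was found in a window of 7 of the 8 stress-inducible members matched and 9 of the 24 constitutive ones (87.5% and 37.5%), where 17.0% of 27025 genes in the table had one. For the stress-inducible Bag3 and Hspb8 and the constitutive Cct6a, the only match lies after the start. The longer form GAANNTTCNNGAA or its reverse complement TTCNNGAANNTTC, which contains 2 overlapping matches of the short form, was found for 4 members, Dnajb6, Hspd1, Hspe1 and Hsph1, where 0.66% of genes had it. For Hsph1 it lies at chr5:149636279-149636308 on the minus strand and for Dnajb6 at chr5:29735844-29735873 on the plus strand, shown with the longer form in capitals.
Hsph1: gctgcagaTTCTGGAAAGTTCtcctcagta
Dnajb6: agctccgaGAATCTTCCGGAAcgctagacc
The 4 genes had log2 fold changes of 0.28, 0.47, 0.11 and 0.18 in the order named, and none passed. Some genes have several windows, and a match is a run of letters, not a measured binding site. The longer form of Hsph1 lies after the start in each of its windows.

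No gene of the other folding lists passed. Of 52 further co-chaperones, prefoldins and proteases, 50 were tested and 0 passed, with log2 fold changes from -0.47 to 0.68 and a median of 0.035. At an unadjusted p under 0.05, 7 were higher and 0 lower, against 3.54% and 7.40% of all genes. The median was -0.022 without wild-type 1 and 0.14 without wild-type 2. The highest values, of genes named after their values were seen, were 0.68 for the prefoldin subunit Vbp1 (standard error 0.35) and 0.68 for Ppid, an HSP90-binding cyclophilin (standard error 0.23). They were 0.14 and 0.33 without wild-type 2. The most abundant in CPM were Ubb, a polyubiquitin gene that heat also induces (-0.086, standard error 0.18), and Vcp, an unfolding ATPase (0.11, standard error 0.15). Of 21 chaperones and stress genes of the endoplasmic reticulum, 0 passed (median 0.15). Hspa5, the HSP70 of that compartment, had 730 and 707 CPM in wild-type and 837 and 806 CPM in knock-in libraries (0.19, standard error 0.14, adjusted p = 0.597), and Asns, a target of the amino acid response, gave -0.054 (standard error 0.14).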

How the data were processed

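Per the labels, Trizol RNA of 2 wild-type and 2 knock-in cultures went into TruSeq libraries. The authors deposited 1 table of raw counts per gene and library. Per the submitters' processing notes, Trim Galore, STAR 2.5.3a and the build GRCm38 (mm10) were used; for the annotation release, nothing is given in the sources used here. GENCODE M21 matched 54809 of 54838 identifiers. Summary lines (unmapped 2.38% to 4.39%, multimapping 3.80% to 4.46%, ambiguous 5.96% to 6.38% and no feature 2.23% to 3.67% of reads) were left out of library sizes. The unstranded column was used, so overlapping genes on opposite strands cannot be told apart, and reads that fit several copies were not assigned.

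Tests used edgeR 4.0.16 in R 4.3.3 across all genes: TMM scaling, filterByExpr (minimum count 10), the quasi-likelihood F test with genotype alone and Benjamini-Hochberg adjustment over 15191 genes. Each standard error is the size of the log2 fold change over the root of its F statistic, and CPM is TMM-scaled. The procedure was tested on simulated data. Alternatives were DESeq2 1.42.0, its size factors, other filters (none, or minimum count 50), a replicate block, the reverse-strand column, leaving out each library, and an offset from a natural spline (5 degrees of freedom) on the GC content of the longest transcript, fitted over genes of at least 10 CPM. Per-length levels used unscaled counts and exon-union length. Shared windows are 50-base runs of a gene's annotated transcripts found in another gene's, on either strand; the read length was not used.

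The members and gene lists were chosen with earlier results of these data known. The genes given library by library were the 9 stress-inducible members, Hsf1, Hsf2, Hspa8, Hsp90ab1, Hspd1, Hspe1, Hspa9, Tcp1, any further member past the threshold and the 4 further members of at least 1 CPM with the largest change. From the other lists came members past the threshold or, with none, the 2 most abundant.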

Additional observations from a re-analysis of the deposited data

How the results depend on the processing

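Depth limits mainly the 6 of 40 members under 10 CPM. The standard error of a log2 fold change was 0.14 to 0.44 with 2 libraries a line. Against 10 genes past the threshold over all genes, 354 passed without a filter, 6 with the stricter filter, 81 with DESeq2, 207 with the GC offset, and 16 to 5015 over the 8 fits that left out a library, with or without the offset. With the replicate number as a block 197 genes passed, 452 with block and offset together and 509 with the crossed pairing, which was added after seeing the data because same-numbered libraries deviated in opposite directions (correlation -0.17). Nothing in the labels says that the numbers pair libraries.

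Of the 40 members 0 passed, also with the replicate block; 1 passed without a filter, 2 with the crossed pairing (Hsp90aa1 and Dnaja1, both higher) and 0 to 18 when a library was left out. The cause of these changes was not tested. The median over all members was 0.051 with the GC offset, 0.053 with block and offset, and 0.014 to 0.16 without a library. The stress-inducible median was 0.098 with the wide list and -0.17 to 0.041 without a library. The constitutive median was 0.051 with the offset, 0.054 with block and offset, and 0.015 to 0.25 without a library.

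Some genes that did not pass in the fit on all libraries changed sign in other fits. With the GC offset, and with block and offset, the log2 fold changes were 0.079 and 0.079 for Hspb1, 0.082 and 0.087 for Bag3, 0.0026 and 0.0021 for Dnajb1, -0.071 and -0.11 for Dnajb4, 0.052 and 0.049 for Hsf1, -0.095 and -0.076 for Hspa8, -0.069 and -0.047 for Hspe1 and -0.036 and -0.029 for Tcp1. Hsf1 was 0.022 in the reverse-strand column. Leaving out a library, with or without the offset, gave ranges of -0.63 to 0.056 for Hspa1b, -0.36 to 0.16 for Hspb1, -0.28 to 0.068 for Hspb8, -0.17 to 0.28 for Bag3, -0.14 to 0.041 for Dnajb1, -0.48 to 0.60 for Dnajb4, -0.14 to 0.15 for Hsf1, -0.053 to 0.86 for Hsf2, -0.32 to 0.19 for Hspa8, -0.32 to 0.26 for Hspe1, -0.021 to 0.25 for Hspa9, -0.19 to 0.42 for Tcp1, -0.023 to 0.82 for Hspa13 and -0.031 to 0.43 for Cct8. Over the 21 genes given library by library, 55 of 356 alternative values changed sign, counted whether or not they passed. Of the values that kept their sign, 17 passed and 284 did not.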

Other observations

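Immediate-early genes respond within minutes to handling and growth factors. Of 12 listed, 11 were tested and 0 passed, with a median log2 fold change of -0.17, or 0.059 without wild-type 2. The most abundant in CPM were Ier2 (wild-type libraries 182 and 247 CPM, knock-in libraries 229 and 214 CPM) and Junb (-0.053, standard error 0.18). Egr1, a target of growth factor signalling named after its values were seen, stood at 76.3 and 72.5 CPM in the wild-type libraries and at 46.8 and 43.1 CPM in the knock-in libraries, a log2 fold change of -0.73 (standard error 0.16, edgeR adjusted p = 0.177). Chac1, a stress gene of the unfolded protein response that degrades glutathione and was also named after its values were seen, stood at 175 and 230 CPM in the wild-type libraries and at 131 and 121 CPM in the knock-in libraries (-0.68, standard error 0.17, edgeR adjusted p = 0.237). The largest change of the immediate-early list, also named after its values were seen, was that of Ier3 (-0.85, standard error 0.21, edgeR adjusted p = 0.216). In these 3 genes the lines did not overlap. Egr1 and Chac1 passed with the GC offset (edgeR adjusted p = 0.0490 for Egr1 and 0.0315 for Chac1), where 1.36% of all genes tested did.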
